A study of Chlorocebus sabaeus with 10 samples.

Results

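Cholangiocytes, the epithelial cells that line the bile ducts, were followed in vervet monkey liver through 9 genes commonly used to mark them: KRT7, KRT19, EPCAM, SOX9, SPP1, ANXA4, CFTR, KRT8 and KRT18. A gene was taken up if a transcript in the count table carried its symbol, and 6 of the 9 were found among the 23352 symbols of the table, each with 1 transcript. CFTR, KRT8 and KRT18 had no row under these symbols and were not analysed here. The tissue was liver biopsied from 10 female vervets (Chlorocebus sabaeus, an Old World monkey), all kept on chow beforehand. For 6 weeks 5 animals received a high fructose (HFr) diet and 5 stayed on chow. The authors stratified animals to balance age and body weight, and the mean age they report was higher on HFr, without a significant difference. The labels name no transgene or drug for either group, and each library came from 1 animal.

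The bile ducts run with the portal vein and hepatic artery through the portal tracts and carry the bile that hepatocytes secrete. Cholangiocytes are a small minority of liver cells, so their transcripts are scarce in whole tissue. In injured liver small ductules can expand from the portal tracts, and KRT7 and KRT19 are the proteins most used to see them. KRT7, KRT8, KRT18 and KRT19 are keratins, which form intermediate filaments as pairs of a type II (KRT7, KRT8) and a type I chain (KRT18, KRT19). EPCAM is an epithelial adhesion molecule, SOX9 is a transcription factor of duct and progenitor identity, SPP1 is the secreted protein osteopontin, and ANXA4 is a calcium-dependent membrane-binding annexin. SPP1 is also made by macrophages and other cells, and ANXA4 occurs in other epithelia.

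Total estimated counts per library lay between 2977282 and 4992505, of which transcripts of the mitochondrial genome took 34.7% to 73.6%, leaving 864571 to 2657103 counts for nuclear transcripts. The libraries with the fewest nuclear counts were chow replicates 4 and 5. Hepatocyte marker genes summed to between 42426 and 86962 normalized counts over the 10 libraries, with all 12 detected. A normalized count is the estimated count divided by a TMM-scaled library size (TMM, the trimmed mean of M values, corrects for composition), expressed as counts per 1e6 (CPM) and without a correction for transcript length. In bulk tissue fewer cells of a type and less RNA per cell cannot be told apart.

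None of the 6 genes passed the threshold for a diet difference after adjustment over all transcripts, and for none did the animals of the 2 diets separate into ranges without overlap. Mean levels on HFr were above those on chow for KRT7 and ANXA4 and below them for KRT19, EPCAM, SOX9 and SPP1. KRT19 gave the smallest unadjusted p-value of edgeR's quasi-likelihood test, and 1 chow animal held much of its signal. EPCAM, SOX9 and ANXA4 were among the 7948 transcripts that passed the filter on low counts. The filter asked for 3.06 CPM in at least 5 libraries, with this CPM taken on library totals before TMM scaling. KRT7 reached that level in 4 libraries, KRT19 in 3 and SPP1 in 1, and these genes were taken from a fit on all 16066 transcripts with a count above 0 in any library after rounding. Among the 7948 transcripts 0 passed the adjusted threshold of 0.05 and 341 (4.29%) had an unadjusted p under it, 2.06% higher and 2.23% lower on HFr. In the wider fit the numbers were 0 and 756 (4.71%), 2.24% higher and 2.46% lower on HFr. DESeq2 gave adjusted calls to 2 of the 7948 transcripts, neither of them a biliary marker. Of the 6 markers, 0 of the 3 in the filtered fit and 1 of 6 in the wider fit had an unadjusted p under 0.05. Transcripts without overlap between the diets made up 0.541% of the filtered and 0.485% of the wider set, and 0 of the 6 markers were among them.

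**Figure D1:**
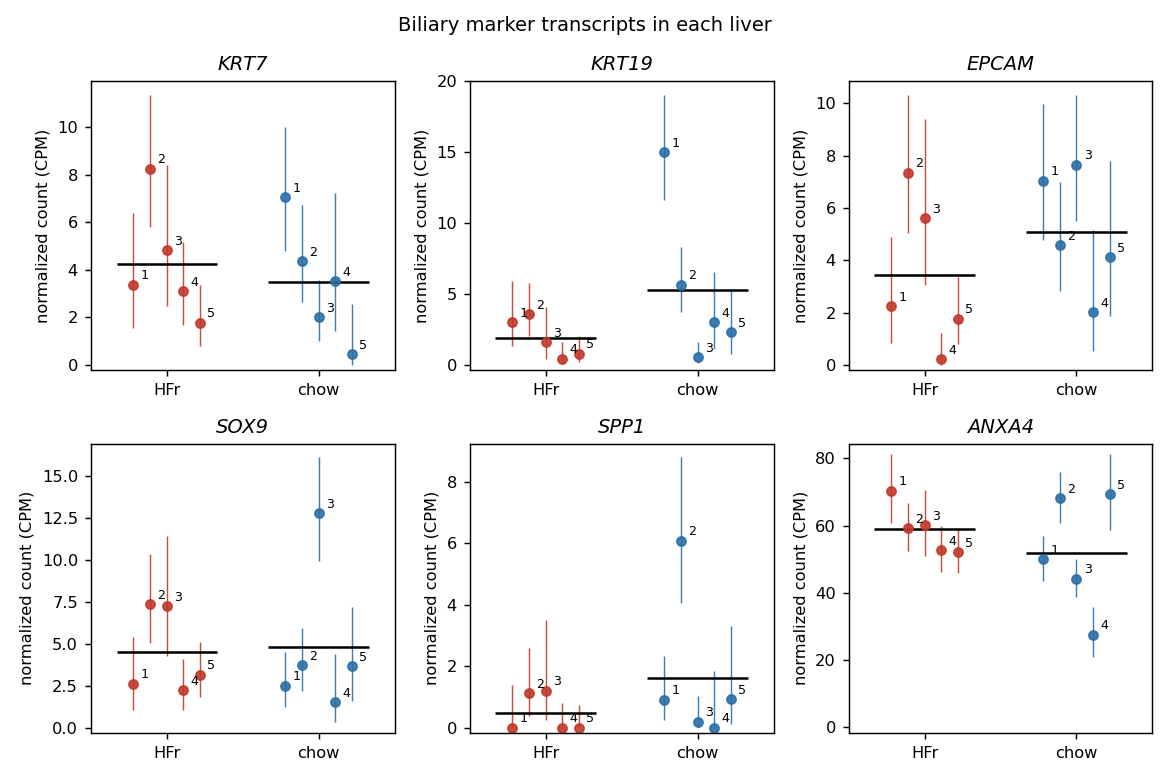
Normalized count (CPM on TMM-scaled library sizes) of 6 biliary marker transcripts in each animal on HFr (red) or chow (blue), numbered by replicate; vertical lines are exact 95% Poisson intervals of the count and the black bar is the mean of 5 animals. Within each diet the animals spread widely, and single chow animals stand above the others for KRT19 (14.98), SOX9 (12.8) and SPP1 (6.09).

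KRT7 is the type II keratin of duct epithelium and lies on chromosome 11 of ChlSab1.1, from 48379465 to 48394644 on the plus strand. HFr replicates 1 to 5 held 9, 37, 12, 14 and 9 KRT7 counts, or 3.37, 8.24, 4.81, 3.09 and 1.77 normalized counts. Chow replicates 1 to 5 held 31, 20, 11, 7 and 1 counts, or 7.04, 4.35, 2.004, 3.51 and 0.456 normalized counts. HFr replicate 2 was highest and chow replicate 5, with a single count, was lowest, and the diets overlapped over nearly the whole range. The means were 4.26 ± 2.48 on HFr and 3.47 ± 2.49 on chow (SD, n = 5 each, two-sided exact permutation test, p = 0.619). The fitted log2 fold change of HFr over chow was 0.23 (SE 0.47, edgeR adjusted p = 0.970). Without HFr replicate 2 it became -0.19, so the sign of the KRT7 difference depended on that animal.

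KRT19, the type I keratin that marks cholangiocytes of all duct sizes, lies on chromosome 16 from 64714970 to 64719679 on the plus strand. On HFr the KRT19 counts of replicates 1 to 5 were 8, 16, 4, 2 and 4, or 2.99, 3.56, 1.60, 0.441 and 0.786 normalized counts. On chow they were 66, 26, 3, 6 and 5, or 14.98, 5.66, 0.546, 3.01 and 2.28 normalized counts. Chow replicates 1 and 2 were above every HFr animal, while the other 3 chow animals lay inside the HFr range. The mean was 1.88 ± 1.36 on HFr and 5.30 ± 5.72 on chow (SD, n = 5 each), and the exact permutation test gave p = 0.214. The edgeR log2 fold change was -1.58 (SE 0.63, unadjusted p = 0.0198, adjusted p = 0.838). Each of the 5 HFr values lay under the mean of the chow group, but 1 of the 5 was above the chow median of 3.01.

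Chow replicate 1 alone supplied 41.8% of the summed normalized KRT19 level of the 10 animals, with a 95% Poisson interval of 11.6 to 19.1 around its value of 14.98. Without this animal the chow mean was 2.87 ± 2.12 (SD, n = 4), the exact permutation p was 0.413, and the edgeR log2 fold change was -0.64 (unadjusted p = 0.306). The same library had the highest summed level of 14 marker genes of stellate cells, portal fibroblasts and smooth muscle, 861 normalized counts, against 239 to 428 in the HFr animals and 191 to 752 in the other chow animals. The sum of 752 belonged to chow replicate 5, with KRT19 at 2.28, while chow replicate 2, with KRT19 at 5.66, had a sum of 268. LRAT, a stellate cell gene, had no count in any library. The part of stroma in the KRT19 values was not tested.

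KRT7 and KRT19 can be set against each other inside a library, where normalization cancels. The log2 ratio of KRT7 to KRT19 counts, with 0.5 added to each count, was 0.16, 1.18, 1.47, 2.54 and 1.08 in HFr replicates 1 to 5. It was -1.08, -0.37, 1.72, 0.21 and -1.87 in chow replicates 1 to 5. All 5 HFr libraries had more KRT7 than KRT19 counts, as did 2 of the 5 chow libraries, namely chow replicates 3 and 4, whose ratios lay within the HFr range. The mean log2 ratio was 1.29 ± 0.85 on HFr and -0.28 ± 1.36 on chow (SD, n = 5 each), a difference of 1.57 (two-sided exact permutation test, p = 0.0873). Because counts were not scaled by length, the ratio compares libraries and not the levels of the genes. With each animal left out in turn it ran from 1.17 without chow replicate 5 (exact permutation p = 0.135) to 2.07 without chow replicate 3 (exact permutation p = 0.0238), the only 1 of the 10 omissions with a p under 0.05, and the highest p was 0.151, without HFr replicate 4. Ratios with KRT8 or KRT18 could not be formed from the rows used.

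**Figure D2:**
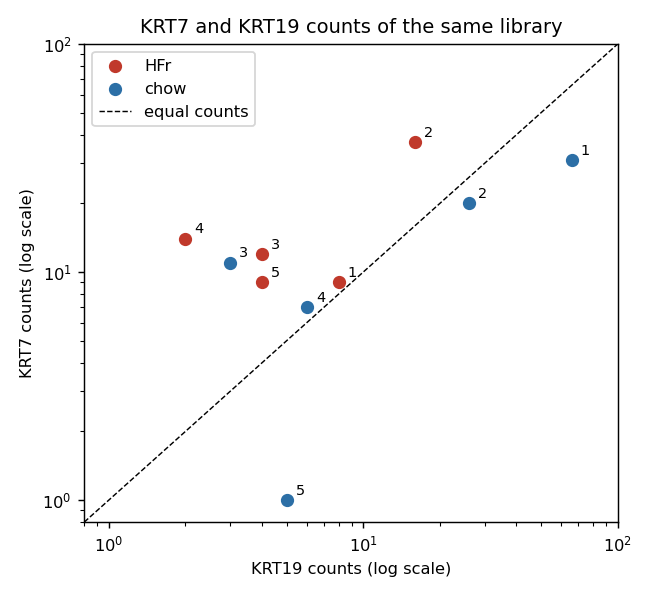
KRT7 counts (vertical, log scale) against KRT19 counts (horizontal, log scale) of each library, HFr in red and chow in blue, numbered by replicate, with a dashed line of equal counts. The 5 HFr libraries lie above the line, and chow replicates 1, 2 and 5 lie below it.

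EPCAM, the epithelial adhesion molecule found on cholangiocytes and hepatic progenitors, lies on chromosome 14 from 59815064 to 59832230 on the minus strand. HFr replicates 1 to 5 held 6, 33, 14, 1 and 9 EPCAM counts, or 2.25, 7.35, 5.61, 0.221 and 1.77 normalized counts. Chow replicates 1 to 5 held 31, 21, 42, 4 and 9, or 7.04, 4.57, 7.65, 2.01 and 4.11 normalized counts. The lowest value belonged to HFr replicate 4 with a single count, and the highest values of the diets, in HFr replicate 2 and chow replicate 3, were close to each other. The means were 3.44 ± 2.94 on HFr and 5.07 ± 2.30 on chow (SD, n = 5 each, exact permutation p = 0.357). The edgeR log2 fold change was -0.66 (SE 0.56, adjusted p = 0.9996), and it stayed negative whichever animal was left out, between -1.25 and -0.33.

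SOX9, the transcription factor of duct and progenitor cells, lies on chromosome 16 from 49518185 to 49523899 on the minus strand. Its counts in HFr replicates 1 to 5 were 7, 33, 18, 10 and 16, or 2.62, 7.35, 7.21, 2.21 and 3.14 normalized counts. In chow replicates 1 to 5 they were 11, 17, 70, 3 and 8, or 2.497, 3.70, 12.8, 1.51 and 3.65 normalized counts. Chow replicate 3 stood above all other animals, while the other 4 chow animals lay below the middle of the HFr range. With all animals the means were 4.51 ± 2.56 on HFr and 4.82 ± 4.53 on chow (SD, n = 5 each, exact permutation p = 0.873), and the edgeR log2 fold change was -0.22 (SE 0.52, adjusted p = 0.9996). Without chow replicate 3 the chow mean was 2.84 ± 1.05 (SD, n = 4) and the edgeR log2 fold change was 0.61 (adjusted p = 0.996), so the direction of the SOX9 difference turned on 1 library.

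SPP1, which encodes osteopontin, a secreted phosphoprotein that binds integrins and CD44, lies on chromosome 7 from 36338386 to 36344408 on the plus strand. Only 43 SPP1 counts were recorded in all, and 28 of them came from chow replicate 2. HFr replicates 1 to 5 held 0, 5, 3, 0 and 0 counts, or 0, 1.11, 1.20, 0 and 0 normalized counts. Chow replicates 1 to 5 held 4, 28, 1, 0 and 2 counts, or 0.908, 6.09, 0.182, 0 and 0.913 normalized counts. Outside chow replicate 2 no animal had more than 5 counts, and the HFr values lay inside the chow range. A count of 0 allowed a level of up to 1.12, 0.662 and 0.590 in HFr replicates 1, 4 and 5 and of up to 1.51 in chow replicate 4, taking 3 counts as the limit. The means were 0.463 ± 0.635 on HFr and 1.62 ± 2.53 on chow (SD, n = 5 each, exact permutation p = 0.595). The edgeR log2 fold change was -1.96 (SE 0.96, unadjusted p = 0.0525, adjusted p = 0.838), and without chow replicate 2 it was -0.21. Chow replicate 2 had the lowest summed level of 11 macrophage marker genes of all 10 libraries, 87.2 normalized counts, against 133 to 306 on HFr and 157 to 299 in the other chow animals. The cell source of the SPP1 counts was not tested.

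ANXA4, on chromosome 14 from 37297652 to 37344885 on the minus strand, was the marker with the most counts, 2091 in all, and the one with the smallest spread between animals. HFr replicates 1 to 5 held 188, 266, 150, 239 and 265 counts, or 70.4, 59.3, 60.1, 52.7 and 52.1 normalized counts. Chow replicates 1 to 5 held 220, 313, 243, 55 and 152 counts, or 49.9, 68.1, 44.3, 27.6 and 69.4 normalized counts. Chow replicates 1, 3 and 4 were below every HFr animal, and chow replicates 2 and 5 were inside the upper part of the HFr range. The means were 58.9 ± 7.38 on HFr and 51.9 ± 17.5 on chow (SD, n = 5 each, exact permutation p = 0.444). The edgeR log2 fold change was 0.18 (SE 0.23, adjusted p = 0.9996) and came to 0.02 without chow replicate 4, the library with the fewest nuclear counts.

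The markers with few counts varied between animals of a diet more than other transcripts of like abundance. The biological coefficient of variation estimated by edgeR was 68.0% for KRT19 against a trend of 36.4% at its abundance, 48.7% against 35.8% for KRT7, and 103% against 47.0% for SPP1. In the filtered fit it was 58.0% for EPCAM against a trend of 32.1% and 53.8% for SOX9 against 31.9%. ANXA4 showed the reverse order, 26.2% against 28.2%.

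The highest animal differed between markers, with chow replicate 3 highest for both EPCAM and SOX9. HFr replicate 2 was among the 3 highest animals for 5 of the 6 genes, all but ANXA4. HFr replicate 3 was among the 3 highest for KRT7, SOX9 and SPP1, and HFr replicate 1 and chow replicate 5 for ANXA4 only. Chow replicate 1 was among the 3 highest for KRT7, KRT19 and EPCAM, chow replicate 2 for KRT19, SPP1 and ANXA4, and chow replicate 3 for EPCAM and SOX9. HFr replicates 4 and 5 and chow replicate 4 were in the highest 3 for none. Summed over KRT7, KRT19, EPCAM and SOX9, the level ran from 5.96 normalized counts in HFr replicate 4 to 31.6 in chow replicate 1. The same sum was 26.5 in HFr replicate 2 and 10.04 in chow replicate 4, so both diets held animals at either end.

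**Figure D3:**
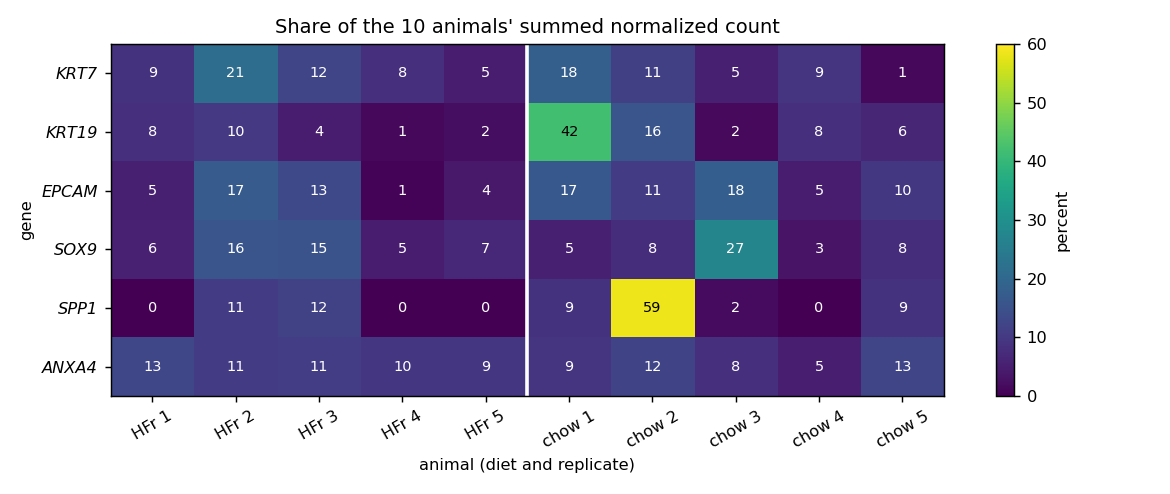
Share of each gene's summed normalized count over the 10 animals (percent, color and number in each cell) by gene (rows) and animal (columns, HFr left of the white line, chow right). Chow replicate 2 holds 58.5% of SPP1 and chow replicate 1 holds 41.8% of KRT19, while no animal holds over 12.7% of ANXA4.

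Across the 10 animals, log2(normalized count + 1) of the 6 genes gave 15 pairs, with Pearson r between -0.30 and 0.67 and 13 of the 15 above 0. The 10 points of every pair share library depth and TMM factor. EPCAM and SOX9 had the highest value, r = 0.67 (permutation p = 0.0322, adjusted over the 15 pairs 0.459) and Spearman rho = 0.75 (permutation p = 0.0184, adjusted 0.210). Without the 2 animals farthest from the EPCAM median r was 0.74, and after the diet means were subtracted it was 0.75. KRT7 and KRT19 gave r = 0.54 (permutation p = 0.110, adjusted 0.459) and rho = 0.67 (permutation p = 0.0390, adjusted 0.210), with r = 0.83 when HFr replicate 2 and chow replicate 5 were left out. Leaving out 2 animals did not raise r in every pair. For KRT19 and EPCAM r went from 0.46 to -0.04 without HFr replicate 4 and chow replicate 1. For KRT7 and SOX9 it went from 0.03 to -0.27 without HFr replicate 2 and chow replicate 5. The lowest pair was KRT19 with SOX9, at r = -0.30 and rho = -0.09. None of the pairs passed adjustment.

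The tested transcripts whose pattern over the 10 animals was most like that of EPCAM were DR1, a transcriptional repressor (r = 0.98), USP28, a deubiquitinase (r = 0.90), and SCAMP1, a secretory carrier membrane protein (r = 0.90). For SOX9 they were F5, coagulation factor V (r = 0.92), SLC20A1, a phosphate transporter (r = 0.88), and FNDC3A (r = 0.88). For ANXA4 they were POP7, an RNase P subunit (r = 0.91), ITGA9, an integrin chain (r = 0.89), and VPS25, an ESCRT subunit (r = 0.87). These are the highest among all 7948 transcripts over 10 animals and are given as a description. The search covered only transcripts of the filtered fit, which left out KRT7, KRT19 and SPP1. It held only 5 of the 18 further biliary identity genes with a row. No other marker of bile duct epithelium was among the 3 nearest. With so few duct genes searched, this cannot show whether the markers follow a duct pattern.

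**Figure D4:**
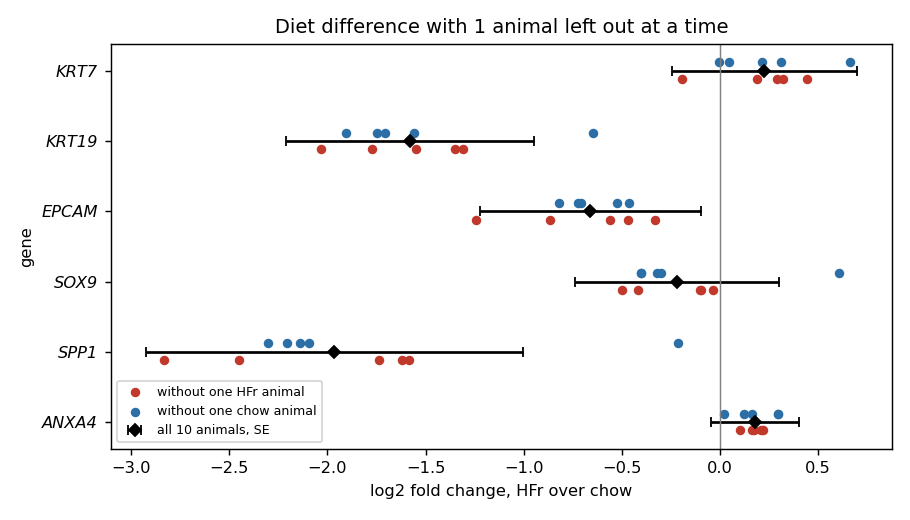
Log2 fold change of HFr over chow for each marker (horizontal axis), with all 10 animals (black diamond, bar of 1 standard error) and with 1 HFr animal (red) or 1 chow animal (blue) left out; KRT7, KRT19 and SPP1 are from the fit on all transcripts with a count, the others from the filtered fit. Without 1 chow animal each, KRT19 moves from -1.58 to -0.64, SPP1 from -1.96 to -0.21 and SOX9 from -0.22 to 0.61.

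Other genes of the biliary epithelium were split between both directions. Of 18 further biliary identity genes with a row, 5 passed the filter, 2 higher and 3 lower on HFr, with a median log2 fold change of -0.01 against -0.00069 over all 7948 transcripts, of which 49.8% were higher on HFr. The only 1 of the 5 with an unadjusted p under 0.05, against 4.29% of all 7948 transcripts, was DEFB1, a beta-defensin of epithelia. DEFB1 stood at 8.23, 14.9, 11.2, 9.71 and 11.8 normalized counts in HFr replicates 1 to 5 and at 5.45, 10.2, 6.74, 6.53 and 5.48 in chow replicates 1 to 5. All HFr animals but replicates 1 and 4 were above every chow animal. The log2 fold change of DEFB1 was 0.69 (SE 0.24, edgeR unadjusted p = 0.0132, adjusted p = 0.9996).

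In the wider fit, 17 of the biliary identity genes had a value, 7 higher and 10 lower on HFr, where 48.4% of all transcripts were higher. Of the 17, 4 had an unadjusted p under 0.05, against 4.71% of all transcripts. Besides DEFB1, those with an unadjusted p under 0.05 were CLDN7, a tight junction claudin, TM4SF4, a tetraspan membrane protein, and MUC1, a membrane mucin of duct epithelium, which are named after their values were seen. CLDN7 averaged 4.81 ± 2.46 normalized counts on HFr and 2.64 ± 1.13 on chow (SD, n = 5 each), and the fold change was 0.86 on the log2 scale (SE 0.41). TM4SF4 averaged 111 ± 80.7 on HFr and 68.0 ± 18.6 on chow, and HFr replicate 2 alone reached 244 while HFr replicates 4 and 5, at 54.1 and 51.7, were below the chow mean. In the filtered fit TM4SF4 had an edgeR unadjusted p of 0.0894, against 0.0477 in the wider one. MUC1 had 3, 4, 1, 0 and 1 counts in HFr replicates 1 to 5 and 10, 17, 2, 2 and 6 in chow replicates 1 to 5, and its log2 fold change was -1.99 (SE 0.71). The edgeR adjusted p was 0.838 for each of the 3. The exact permutation p was 0.0952 for CLDN7, 0.325 for TM4SF4 and 0.0556 for MUC1. KRT23 had no count in any animal.

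**Figure D5:**
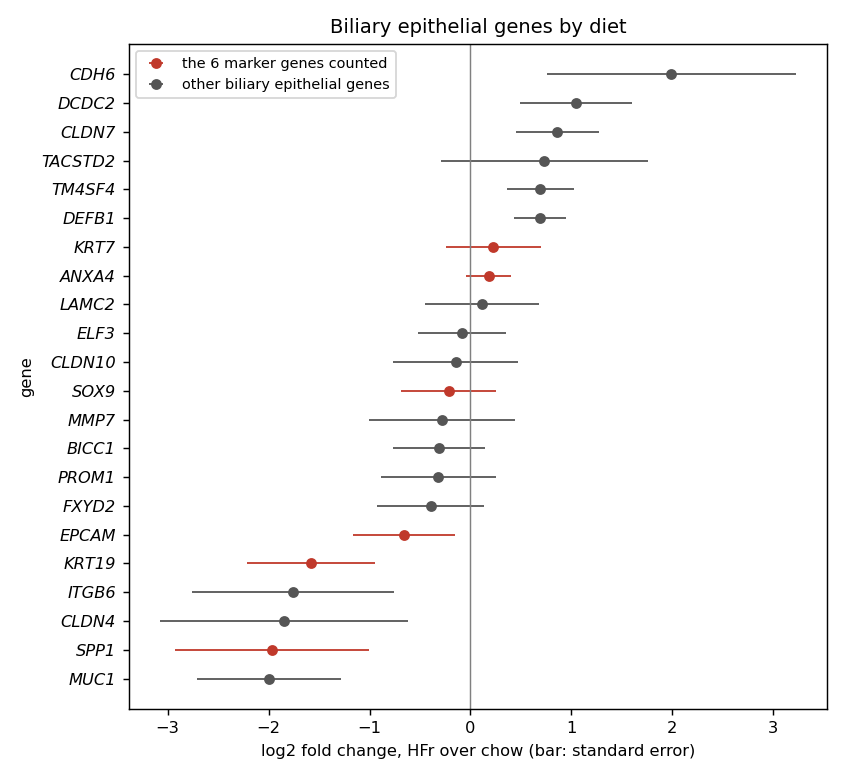
Log2 fold change of HFr over chow (horizontal axis, bar of 1 standard error, fit on all transcripts with a count) for the 6 markers (red) and 16 other biliary epithelial genes (grey), ordered by value. The genes spread over both sides of 0, from MUC1 (-1.99) to CDH6 (1.99), and the widest bars belong to genes with few counts.

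Ductal bile secretion and primary cilium genes, which serve water, bicarbonate and flow sensing in duct cells, had 8 members in the filtered fit, 5 higher and 3 lower on HFr, with a median log2 fold change of 0.17 and 0 at an unadjusted p under 0.05. Over all 7948 transcripts 49.8% were higher on HFr, the median was -0.00069 and 4.29% had an unadjusted p under 0.05. PKHD1, whose product sits on the primary cilium, averaged 33.9 ± 12.8 on HFr and 23.6 ± 6.55 on chow (SD, n = 5 each). ANO1, a calcium-activated chloride channel, averaged 109 ± 35.8 on HFr and 142 ± 39.4 on chow. SLC4A2, the chloride/bicarbonate exchanger of the duct, averaged 32.1 ± 8.999 and 26.5 ± 5.58. SLC10A2, the apical bile acid transporter, had no count in any animal.

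Of 11 Notch and Hippo pathway genes that guide biliary fate, 10 had a fold change below 0 on HFr and 1 above. The median was -0.31, and 49.8% of all 7948 transcripts were higher on HFr. Summed over the 18 genes with a row, chow replicates 1 and 5 had 242 and 259 normalized counts. The other chow animals had 175 to 198 and the HFr animals 186 to 206. Chow replicates 1 and 5 also had the highest sums of stroma genes, 861 and 752. The part of stroma in these values was not tested. An unadjusted p under 0.05, found for 4.29% of all transcripts, was reached by 1 of the 11. That gene was WWTR1, the Hippo effector TAZ, with 15.3, 11.4, 16.4, 9.27 and 8.65 normalized counts in HFr replicates 1 to 5 and 18.4, 16.1, 17.1, 13.1 and 29.7 in chow replicates 1 to 5. The diets overlapped between the highest HFr and the lowest chow animals. Its log2 fold change was -0.64 (SE 0.25, edgeR unadjusted p = 0.0225, adjusted p = 0.9996). The unadjusted p was 0.05 or more in 5 of 26 alternatives, among them those without HFr replicate 4 (-0.57), HFr replicate 5 (-0.54) or chow replicate 5 (-0.45 on the log2 scale). YAP1, the paralog of WWTR1, averaged 18.8 ± 1.58 on HFr and 21.1 ± 1.54 on chow (SD, n = 5 each), and its log2 fold change was -0.18. The Notch ligand JAG1 and the Notch target HES1 had log2 fold changes of -0.31 (SE 0.26) and -0.37 (SE 0.28), and NOTCH1 was the gene above 0, at 0.29.

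ONECUT1, a transcription factor of biliary development below the filter, is named after its values were seen. It had 1, 3, 3, 7 and 4 counts in HFr replicates 1 to 5 and 0, 0, 1, 1 and 0 in chow replicates 1 to 5. The mean level was 0.915 ± 0.461 on HFr and 0.137 ± 0.219 on chow (SD, n = 5 each, exact permutation p = 0.0159), and the adjusted p of edgeR in the wider fit was 0.838. In that fit 4 of the 18 Notch and Hippo genes were higher and 14 lower on HFr. An unadjusted p under 0.05 was reached by 2 of the 18, ONECUT1 and WWTR1, against 4.71% of all transcripts.

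Keratin filaments are tied to desmosomes and plakins. Of 7 such genes in the filtered fit, where 49.8% of all 7948 transcripts were higher on HFr, 6 were higher and 1 lower. Their median log2 fold change was 0.08. Only DSP, the desmosomal plakin desmoplakin, had an unadjusted p under 0.05, as did 4.29% of all 7948 transcripts. DSP stood at 31.4, 40.1, 28.9, 16.8 and 15.7 normalized counts in HFr replicates 1 to 5 and at 14.8, 12.8, 24.4, 14.6 and 13.2 in chow replicates 1 to 5. HFr replicates 1, 2 and 3 were above all chow animals, and HFr replicates 4 and 5 were below chow replicate 3. The log2 fold change of DSP was 0.71 (SE 0.28, edgeR unadjusted p = 0.0232, adjusted p = 0.9996). Its unadjusted p was 0.05 or more in 6 of 26 alternatives, among them those without HFr replicate 1 (0.64), HFr replicate 2 (0.50), chow replicate 2 (0.63) or chow replicate 5 (0.65 on the log2 scale). Of 43 keratin genes with a row, 31 had no count in any animal and 7 had between 1 and 8 counts in all. The 5 with over 100 counts were KRT10 with 396, KRT7 with 151, KRT28 with 149, KRT19 with 140 and KRT80 with 116. KRT8 and KRT18 had no row under their symbols and are not part of this order.

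Over the filtered fit 49.8% of transcripts were higher on HFr and 4.29% had an unadjusted p under 0.05. Osteopontin receptor genes had 5 members there, 2 higher and 3 lower, with 0 at an unadjusted p under 0.05. Among them the integrin chain ITGB1 averaged 3.68 ± 0.871 on HFr and 5.39 ± 1.33 on chow (SD, n = 5 each), and CD44 averaged 23.3 ± 3.69 and 25.1 ± 5.90. Other annexins also had 5 tested members, 2 higher and 3 lower, with 0 at an unadjusted p under 0.05. In the wider fit 1 of 9 did, beside 4.71% of all transcripts, namely ANXA13 (-1.45, SE 0.66), with 64 counts in all (exact permutation p = 0.119). ANXA5, a phosphatidylserine-binding annexin, averaged 41.6 ± 11.6 on HFr and 42.5 ± 13.4 on chow.

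Markers of the other cells of a biopsy were read in the same way. In the filtered fit 12 hepatocyte genes split into 9 higher and 3 lower on HFr, 7 periportal hepatocyte genes into 5 and 2, and 5 pericentral hepatocyte genes into 0 and 5, and none of these had an unadjusted p under 0.05. Over all 7948 transcripts of the filtered fit 49.8% were higher on HFr and 4.29% had an unadjusted p under 0.05. In the wider fit all 8 pericentral genes with a value were below 0, with a median log2 fold change of -0.56. Of these 2 had an unadjusted p under 0.05, namely OAT, an aminotransferase (-1.04), and RHBG, an ammonium transporter with 17 counts in all. The exact permutation p was 0.230 for OAT and 0.444 for RHBG. Over all transcripts of that fit 48.4% were higher on HFr, the median was -0.013 and 4.71% had an unadjusted p under 0.05. In the filtered fit 8 of 9 macrophage genes were higher and 1 lower, of 5 lymphocyte genes 2 and 3, and the 1 tested blood gene was higher. None of these had an unadjusted p under 0.05. Of 10 endothelial genes 6 were higher and 4 lower. An unadjusted p under 0.05 was reached by 1 of these, beside 4.29% of all 7948 transcripts. This was KDR, the VEGF receptor 2, with a log2 fold change of 0.57 (SE 0.19, edgeR unadjusted p = 0.0109, adjusted p = 0.9996).

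Of 9 genes of stellate cells, portal fibroblasts and smooth muscle in the filtered fit, 1 was higher and 8 were lower on HFr. Their median log2 fold change was -0.43. An unadjusted p under 0.05, found for 4.29% of all 7948 transcripts, was reached by 2 of the 9. These were the smooth muscle genes ACTA2, an actin, and TAGLN, transgelin. ACTA2 stood at 6.74, 6.68, 5.61, 1.32 and 5.50 normalized counts in HFr replicates 1 to 5 and at 10.2, 16.3, 3.83, 16.6 and 31.9 in chow replicates 1 to 5. Chow replicates 1, 2, 4 and 5 were above every HFr animal, and chow replicate 3 was inside the HFr range. The log2 fold change was -1.57 (SE 0.49, edgeR unadjusted p = 0.00646) for ACTA2 and -0.69 (SE 0.24, unadjusted p = 0.0122) for TAGLN, and the adjusted p was 0.9996 for both. In the wider fit, where 2.46% of all transcripts had an unadjusted p under 0.05 and a fold change below 0, 4 of 13 genes of this list did. Smooth muscle lies in the walls of portal vessels beside the ducts, and the part of these genes in the biliary values was not tested.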

How the data were processed

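Polyadenylated RNA of liver biopsies from 10 female vervets (5 on HFr, 5 on chow) was sequenced as paired 100 base reads. The authors aligned reads to ChlSab1.1 with STAR 2.5.3a in Partek Flow, per the labels and methods, and deposited estimated counts per Ensembl 93 transcript, made by expectation-maximization without normalization. The deposited normalized signal was made by the authors by TMM scaling and differed from the estimated counts by a constant per library to within 0.00147%. It was not used for tests. Of the estimated counts 97.7% were whole. Positions are those of the table, start and stop as listed.

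Counts were rounded, filtered with filterByExpr (minimum count 10, minimum total 15) and compared between diets with edgeR 4.0.16 (quasi-likelihood, TMM factors 0.608 to 1.48, diet only, Benjamini-Hochberg, threshold 0.05) in R 4.3.3. A second fit took every transcript with a count. For single values a two-sided exact permutation test over all 252 assignments was used (smallest p 0.00794), and correlations with 100000 permutations, in SciPy. Intervals and the limit of 3 counts for a count of 0 cover counting error only. Each animal is 1 library, and the lowest chi-square per degree of freedom between libraries of a diet was 6.93, so none was a duplicate.

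Genes named were all markers, genes of the other lists with an unadjusted p under 0.05 in the filtered fit (at most 5 per list), and the 3 transcripts nearest in pattern to each tested marker. Other list genes are given as examples. Totals of the biliary identity list include 1 gene that is not reported here. The markers and the lists, written from general knowledge, were chosen with earlier results of these data known. Lists covered biliary identity, bile secretion, Notch and Hippo genes, keratin anchors, osteopontin receptors, annexins, and hepatocytes with their periportal and pericentral types. Further lists covered stroma (stellate cells, portal fibroblasts and smooth muscle), endothelium, macrophages, lymphocytes and blood.

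On simulated counts of 7948 transcripts, 92.6% of those changed by 1 and 100% of those changed by 2 on the log2 scale had an unadjusted p under 0.05 (46.3% and 96.8% adjusted), as did 4.83% of unchanged ones. On 16066 transcripts the shares were 42.3% and 78.1% (18.6% and 57.3% adjusted). The simulated spread followed the trend at each abundance. KRT7, KRT19, EPCAM, SOX9 and SPP1 varied more than that trend, so the shares cannot be read as detection rates for them. Alternatives were DESeq2 1.42.0, limma 3.58.1 (pseudocount 1 or 0.1, or voom), other scalings and filters, an equal-variance test, robust estimation, gene sums, unrounded counts, the mitochondrial percent as a covariate, a replicate block and each animal left out.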

Additional observations from a re-analysis of the deposited data

Results flagged for a closer look

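Among the 14 groups of 5 animals examined, the highest animal stood apart from the other 4 of its diet in 2, by a gap larger than Dixon's 95% critical value of 0.71 of the range. For normally distributed values chance marks about 1 in 20 such groups, a condition that groups of low counts need not meet. SOX9 was at 12.8 normalized counts (70 counts) in chow replicate 3. SPP1 was at 6.09 normalized counts (28 counts) in chow replicate 2.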

How the results depend on the processing

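Scaling by library size alone gave 124 transcripts with an unadjusted p under 0.05 in place of 341, and 3 list genes outside the markers in place of 6, while the fit on all transcripts with a count gave 756 and 16. Leaving out each animal gave 261 to 408 transcripts and 5 to 10 list genes. The log2 fold change of SOX9 turned positive with the equal-variance test and limma with a pseudocount of 1 (0.065), limma with a pseudocount of 0.1 (0.11) and voom (5.4e-05), and lay between -0.50 and 0.61 with each animal left out. That of KRT19 lost its unadjusted p under 0.05 with the equal-variance test and limma with a pseudocount of 1 (-0.83), limma with a pseudocount of 0.1 (-1.10), voom (-1.11) and robust estimation in edgeR (-1.58), and without HFr replicate 4, HFr replicate 5 or chow replicate 1, with a range of -2.04 to -0.64. That of SPP1 reached an unadjusted p of 0.00515 with library size alone (-2.14) and ranged from -2.83 to -0.21 with each animal left out, passing 0.05 without HFr replicate 2 or 3 or chow replicate 1, 3, 4 or 5. KRT7 ranged from -0.19 to 0.67, below 0 without HFr replicate 2 or chow replicate 5 (-0.0019). EPCAM ranged from -1.25 to -0.33 and ANXA4 from 0.02 to 0.30. The log2 ratio of mean normalized counts, with each animal left out, lay between -0.091 and 0.72 for KRT7, -1.86 and -0.61 for KRT19 (exact permutation p = 0.0476 without chow replicate 3), -1.04 and -0.26 for EPCAM, -0.34 and 0.67 for SOX9, -2.54 and -0.11 for SPP1 and 0.02 and 0.31 for ANXA4. The KRT7 to KRT19 ratio difference lay between 1.17 and 2.07. With library size alone DEFB1, KDR, TAGLN, DSP and WWTR1 lost their unadjusted p under 0.05, and with the equal-variance test DSP and WWTR1 did. The lowest adjusted p over the alternatives was 0.358 for KRT19 and 0.642 for SPP1. The causes of these changes were not tested.

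Same-numbered animals of the diets did not deviate together (correlations -0.29 to 0.10, 0 of 5 nearest to their own number), and the labels state no pairing. Expression alone cannot exclude a matching of animals by design. With a replicate block 271 transcripts had an unadjusted p under 0.05, 139 higher and 132 lower, and the SOX9 log2 fold change was 0.065. A filter of 10 counts in every animal left EPCAM and SOX9 without a value. At the depth of these libraries a count of 0 allowed an SPP1 level of up to 1.51 normalized counts. Alternatives for KRT7, KRT19 and SPP1 in the wider fit were chosen after seeing the data.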
